A study of Mus musculus with 4 samples.

Results

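The complement components and complement receptors examined here are 9 genes chosen by name, namely the C1q chain genes C1qa, C1qb and C1qc, the central components C3 and C4b, the integrin subunits Itgam and Itgb2, and the anaphylatoxin receptors C3ar1 and C5ar1. They matched 10 rows of an FPKM table of 21044 genes, since the table gives the name Itgam to a second, overlapping entry as well, and 9 of these rows had read counts and entered the test over 13086 genes. Messenger RNA was measured by RNA-seq in microglia, the resident macrophages of the brain, isolated from the corpus callosum of mice at postnatal day 7. The groups were 2 libraries from Lag3cKO-Cx3 mice (genotype label ko, cKO here) and 2 libraries from Lag3fl/fl mice (genotype label wt, WT here). Lag3 encodes an inhibitory immune receptor, and the floxed Lag3 allele is thus carried by the WT mice too, which are floxed controls and not mice with an unmodified gene. The suffix Cx3 of the cKO label is not spelled out further in the labels, and neither the Cre allele nor the number of animals behind a library is named. The p-values therefore measure only the spread between these libraries, which may be technical for the WT pair, while the cKO pair differed in sex-linked transcripts, as given with the library checks.

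Complement is a cascade of plasma and tissue proteins that marks targets for removal. In its classical arm C1q, a bundle of A, B and C chains in equal parts, binds the target, and its partner proteases cleave C4. Cleavage of C3 follows further down the cascade, and fragments of C3 stay attached. Phagocytes take up such targets through complement receptor 3, the pair of the Itgam product CD11b and the Itgb2 product CD18, and the released peptides C3a and C5a are sensed by C3ar1 and C5ar1. In the developing mouse brain microglia are the main source of C1q, and C1q, C3 and complement receptor 3 take part in the removal of synapses.

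Lag3 itself was at 35.4 and 17.1 CPM (counts scaled to library size) in the cKO libraries, against 386.7 and 683.0 CPM in the WT libraries, so both cKO libraries were below both WT libraries, with an adjusted p = 0.9997 from edgeR's quasi-likelihood test. Cx3cr1, a microglial receptor gene, was at 3404 and 3034 CPM in cKO, against 6443 and 6554 CPM in WT. The library totals lay between 14645187 and 16770162 counts. Genes with a count numbered 15491 and 12787 in cKO, against 14840 and 15899 in WT, so cKO replicate 2 had the fewest. Over genes at a mean of 5 CPM or more, the median absolute log2 ratio was 0.601 between the cKO libraries and 0.28 between the WT libraries. The libraries of 1 genotype were not alike. Across genes, which are not independent replicates, the log2 CPM of cKO replicate 2 had correlations of 0.783 to 0.802 with the other libraries, against 0.872 to 0.91 among the other 3, and cKO replicate 2 alone had no count for any of the 4 Y-linked genes Ddx3y, Eif2s3y, Uty and Kdm5d. Xist, the transcript that silences an X chromosome in female cells, was at 6.97 and 290.4 CPM in cKO and had no count in either WT library. All 10 microglial markers (such as P2ry12, Tmem119 and Csf1r) were present, and their summed level was 24009 and 23182 CPM in cKO, against 23766 and 27219 CPM in WT. With 2 libraries against 2, the smallest p of an exact two-sided permutation test is 0.333, so single values were not tested that way.

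No complement gene passed the comparison of cKO with WT. Of the 9 members, 0 had an adjusted p under 0.05 in edgeR's quasi-likelihood test with Benjamini-Hochberg adjustment, where 0% of all 13086 genes were called and 4.65% had an unadjusted p under 0.05. None of the 9 had an unadjusted p under 0.05 either. DESeq2 called 0 of the 9, against 0.298% of all genes. Their median log2 fold change was 0.14, with 6 fitted higher and 3 lower, against a median of -0.027 over all genes tested. For 1 of the 9, Itgb2, both cKO libraries exceeded both WT libraries in CPM, as for 17.1% of the tested genes at a mean of 5 CPM or more. For 1 of the 9, C3ar1, both were lower, as for 19.1% of those genes. The groups thus did not overlap for 2 of the 9, against 36.2% of those genes. With cKO replicate 1 left out, edgeR called 6.26% of the genes then tested and 0 of the 9. For 6 of the 9 (C1qa, C1qb, C1qc, C3, C4b and Itgam) the cKO libraries lay further apart in CPM than the group means, so each library is given on its own.

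**Figure D1:**
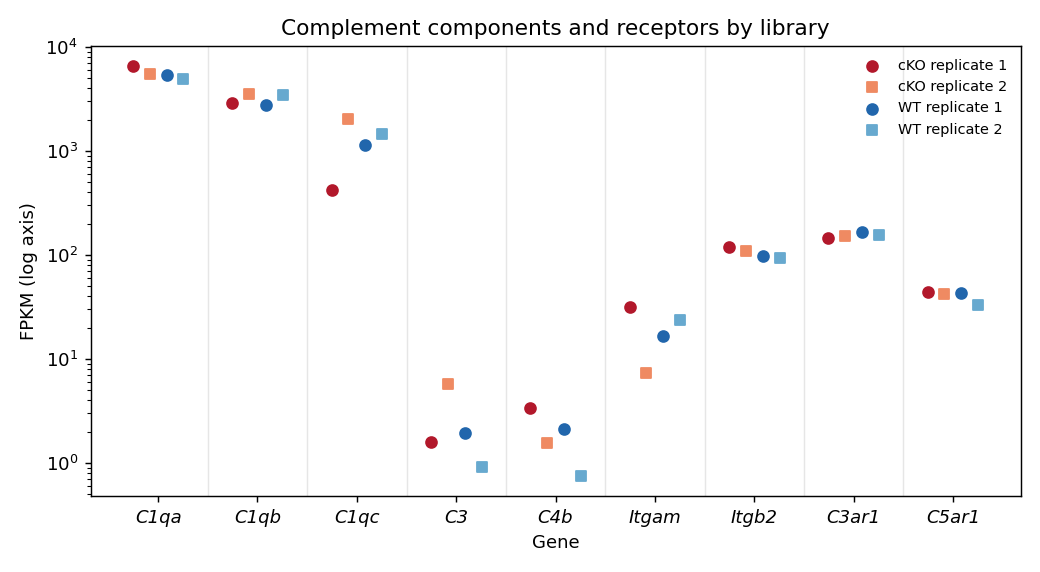
FPKM of the 9 genes (log axis) in each library, with cKO libraries in reds and WT libraries in blues. C1qa is the highest gene in every library, at 6521 and 5530.3 FPKM in cKO and 5411 and 4981 FPKM in WT, and the libraries spread most for C1qc, C3, C4b and Itgam.

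The C1q chains were among the most abundant transcripts of these cells. C1qa (ENSMUSG00000036887), encoding the A chain, was at 6521 and 5530.3 FPKM (fragments scaled to gene length and library size) in the cKO libraries, against 5411 and 4981 FPKM in the WT libraries. It ranked number 3 of all genes by FPKM in each of the 4 libraries. The highest library was cKO replicate 1. Both cKO libraries exceeded both WT libraries in FPKM but the groups overlapped in CPM, with 6774 and 5616 CPM in cKO and 5691 and 5295 CPM in WT. The fitted log2 fold change was 0.17 ± 0.15 (SE).

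C1qb (ENSMUSG00000036905), encoding the B chain, was at 2895 and 3504 FPKM in cKO, against 2768 and 3423 FPKM in WT. Each genotype held a lower and a higher library, and both pairs covered nearly the same range. The level averaged 3434 ± 408.4 CPM in cKO and 3426 ± 537.9 CPM in WT (SD, n = 2 each), with a fitted log2 ratio of 0.0032 ± 0.18 (SE).

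C1qc (ENSMUSG00000036896), encoding the C chain, was at 422.6 and 2037 FPKM in cKO, against 1151 and 1462 FPKM in WT. The cKO libraries enclosed the WT libraries, replicate 1 being the lowest of all 4 and replicate 2 the highest. In counts this was 13686 and 57609 in cKO, against 35230 and 42279 in WT, so counting error is small beside the gap. The high cKO library exceeded the low one 4.71-fold in CPM, where the same ratio was 1.28 between the WT libraries, 1.21 for C1qa between the cKO libraries and 1.18 for C1qb. Of 69 other genes with a mean CPM within 2-fold of that of C1qc, 0 differed as much between the cKO libraries. The group difference was small beside this, with 2328 ± 2140 CPM in cKO and 2566 ± 451.8 CPM in WT (SD, n = 2 each), a fitted log2 ratio of -0.14 ± 0.72 (SE). Leaving out cKO replicate 2 gave -1.66 (adjusted p = 0.456 from edgeR). Leaving out cKO replicate 1 gave 0.57 (adjusted p = 0.0949 from edgeR), and leaving out WT replicate 2 gave 0.046. In such fits the group left with a lone library takes its spread from the other group.

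The sum of the 3 chains consists mostly of C1qa and C1qb, so it could move little with C1qc. It came to 9838 and 11072 FPKM in cKO, against 9330 and 9866 FPKM in WT, and held 1.07% and 1.35% of all counts in cKO, against 1.09% and 1.17% in WT. Within that sum the share of C1qc was 4.30% and 18.4% in cKO, against 12.3% and 14.8% in WT. The share of C1qa was 66.3% and 49.95% in cKO, against 58.0% and 50.5% in WT, and that of C1qb was 29.4% and 31.7% in cKO, against 29.7% and 34.7% in WT. The make-up of the pool was thus set apart in cKO replicate 1, while cKO replicate 2 lay close to the WT libraries. C1qa exceeded C1qc 15.4-fold per length in cKO replicate 1 and 2.71-fold in cKO replicate 2, against 4.70-fold and 3.41-fold in WT. These shares depend on gene length. The FPKM of C1qc matched a length of 1931 bases, which is all exons of its 2 annotated transcripts together, whereas the longest of them, the coding one, has 1203 bases. With 1203 bases the C1qc share was 6.72% and 26.6% in cKO, against 18.4% and 21.8% in WT.

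**Figure D2:**
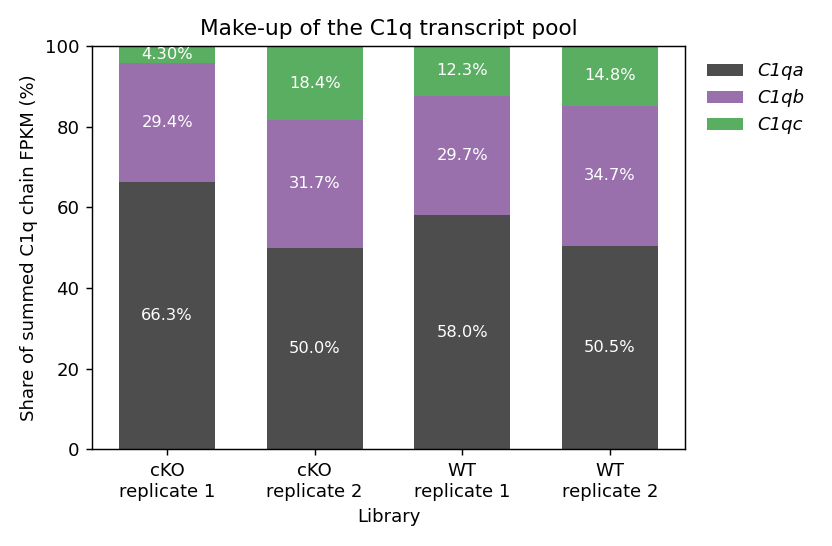
Stacked bars of the share of each C1q chain gene in their summed FPKM (percent), 1 bar per library. C1qc takes 4.30% in cKO replicate 1, against 18.4% in cKO replicate 2 and 12.3% and 14.8% in the WT libraries.

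The 3 chain genes are neighbours on the minus strand of chromosome 4 (GRCm38), in the order C1qb (136880129 to 136886187), C1qc (136889804 to 136893065) and C1qa (136895917 to 136898803). The cluster spans 18675 bases, with 3616 bases between C1qb and C1qc and 2851 bases between C1qc and C1qa, and no exon base of the 3 genes was shared with another annotated gene. The diverging gene is thus the middle one. The start regions of the pair for which the sequence table used here holds an entry, 250 bases before and 50 after the RefSeq start (RefSeq, GRCm38.p6), are shown because these neighbours went apart in cKO replicate 1. Both run 5′ to 3′ on the gene's strand, in lower case, with capitals for matches of 3 motifs searched on both strands and chosen after the data were seen: GAGGAA (a core bound by PU.1 and other ETS factors, written TTCCTC where it lies on the other strand), the TATA box TATAAA, and the AP-1 element TGANTCA.
C1qb promoter, chr4:136886151-136886450, minus strand: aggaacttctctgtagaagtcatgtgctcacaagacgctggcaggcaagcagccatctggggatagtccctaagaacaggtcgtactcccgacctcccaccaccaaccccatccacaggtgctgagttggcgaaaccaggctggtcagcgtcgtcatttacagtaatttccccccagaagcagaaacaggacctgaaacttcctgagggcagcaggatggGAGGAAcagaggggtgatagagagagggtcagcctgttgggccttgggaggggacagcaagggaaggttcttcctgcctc
C1qc promoter, chr4:136892865-136893164, minus strand: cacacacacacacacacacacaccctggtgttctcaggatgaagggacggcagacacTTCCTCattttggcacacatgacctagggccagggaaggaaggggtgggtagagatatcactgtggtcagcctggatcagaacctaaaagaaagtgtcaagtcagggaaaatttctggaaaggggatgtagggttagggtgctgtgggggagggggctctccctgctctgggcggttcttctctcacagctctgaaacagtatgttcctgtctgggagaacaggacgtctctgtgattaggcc
Each holds 1 GAGGAA core, which begins at position -30 from the start for C1qb and at -193, on the other strand, for C1qc. That core occurs in 28.3% of the 32851 start regions of the same length in the table. Neither region holds TATAAA (13.6% of all regions) or TGANTCA (7.81%). A match is a description of letters, not a binding site.

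C3 and C4b, components that come after C1q in the cascade, were low in these cells. C3 (ENSMUSG00000024164, chromosome 17, 57203970 to 57228136, minus strand) had 137 and 430 counts in cKO, against 157 and 70 in WT, which is 1.59 and 5.71 FPKM in cKO, against 1.93 and 0.909 FPKM in WT. The exact 95% Poisson intervals of these counts, which cover counting error only, were 115 to 162 and 390.3 to 472.6 in cKO, and 133.4 to 183.6 and 54.6 to 88.4 in WT. Only cKO replicate 2 stood above the WT libraries, cKO replicate 1 lay between them, and the groups overlapped. A gap as large between the cKO libraries was common at this level. It was met by 22.2% of 3497 genes with a mean CPM within 2-fold of that of C3. The level was 18.4 ± 14.5 CPM in cKO and 7.40 ± 3.70 CPM in WT (SD, n = 2 each). The log2 fold change of 1.31 was the furthest from 0 among the 9 genes, but its standard error was 0.85, and it ranged from 0.14 without cKO replicate 2 to 1.94 without cKO replicate 1. In cKO replicate 2 the summed level of 14 neutrophil and monocyte markers, cells that are known to make C3, was 202.6 CPM, against 42.7 CPM in cKO replicate 1 and 59.5 and 19.7 CPM in WT. Their median log2 fold change was 1.28 over the 8 tested, 7 fitted higher. Of the 14, 4 and 2 were at 0 in cKO, against 3 and 4 in WT, and Mpo and Elane were at 0 in both cKO libraries. The sum of 10 astrocyte markers, another cell type known to make C3, was 525.1 CPM there, against 239.3 CPM in cKO replicate 1 and 225.6 and 183.4 CPM in WT. Their median log2 fold change was 1.44 over the 9 tested, all fitted higher, and S100b was at 0 in cKO replicate 2. The part of such cells in the C3 counts was not tested. In bulk samples, fewer cells of a type and less RNA per cell cannot be told apart.

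C4b (ENSMUSG00000073418, chromosome 17, 34728380 to 34743882, minus strand) had 323 and 130 counts in cKO, against 192 and 64 in WT, or 3.38 and 1.56 FPKM in cKO, against 2.13 and 0.750 FPKM in WT. The higher library of each genotype was replicate 1, and WT replicate 2 was the lowest of all. Of 3364 genes with a mean CPM within 2-fold of that of C4b, 41.7% differed as much between the cKO libraries. Between the WT libraries 8.23% of them differed as much as C4b. C4b differed 2.80-fold between the WT libraries and 2.22-fold between the cKO libraries. C3 and C4b therefore ran opposite to each other between the cKO libraries and together between the WT libraries. The level of C4b was 13.95 ± 7.47 CPM in cKO and 8.31 ± 5.57 CPM in WT (SD, n = 2 each), with a fitted log2 ratio of 0.75 ± 0.81 (SE), which was 0.18 without WT replicate 2, 0.053 without cKO replicate 1, 1.21 without cKO replicate 2 and 1.66 without WT replicate 1. These counts are uncertain for a second reason. Of the 50-base windows of the annotated C4b transcripts, 34.6% also occur in C4a, a near-identical neighbour. C4a was listed with the other complement genes, but the deposited data hold no entry of that name.

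The start region of C3 is shown because C3 had the greatest ratio between any pair of the 4 libraries among the 9 genes on the CPM scale.
C3 promoter, chr17:57228087-57228386, minus strand: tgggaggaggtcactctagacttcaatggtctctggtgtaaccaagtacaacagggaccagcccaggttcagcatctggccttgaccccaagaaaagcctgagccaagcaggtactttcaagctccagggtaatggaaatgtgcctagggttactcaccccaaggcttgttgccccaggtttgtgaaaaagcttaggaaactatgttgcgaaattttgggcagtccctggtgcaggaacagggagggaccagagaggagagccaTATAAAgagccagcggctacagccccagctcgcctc
The capitals mark a TATAAA that begins at base 15 after the annotated RefSeq start. Neither of the other motifs occurs in this window.

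The subunits of complement receptor 3 did not vary together. Itgb2 (ENSMUSG00000000290, chromosome 10, 77530252 to 77565708, plus strand), the shared beta subunit of the leukocyte integrins, was at 120.4 and 110.1 FPKM in cKO, against 96.9 and 93.3 FPKM in WT. Both cKO libraries lay above both WT libraries. The level was 347.5 ± 27.4 CPM in cKO and 295.1 ± 5.75 CPM in WT (SD, n = 2 each), with a fitted log2 ratio of 0.24 ± 0.16 (SE) and an unadjusted p = 0.202 from edgeR. With each library left out the log2 fold change ranged from 0.14 to 0.31. Its direction adds no support, since groups without overlap keep it whichever library is dropped.

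Itgam (ENSMUSG00000030786, chromosome 7, 128062640 to 128118491, plus strand), encoding the alpha subunit CD11b, was at 31.7 and 7.38 FPKM in cKO, against 16.7 and 23.8 FPKM in WT. As for C1qc, the cKO libraries enclosed the WT libraries, but here replicate 1 was the highest of all and replicate 2 the lowest. The counts were 2670 and 543 in cKO, against 1329 and 1792 in WT, and the cKO libraries differed 4.39-fold in CPM, against 1.44-fold between the WT libraries. Of 2676 genes with a mean CPM within 2-fold of that of Itgam, 2.09% differed as much between the cKO libraries. The log2 fold change was -0.085 ± 0.72 (SE), and its sign depended on the libraries kept. It was 0.62 when cKO replicate 2 was left out (adjusted p = 0.597 from edgeR), 0.20 when WT replicate 2 was, and -1.52 when cKO replicate 1 was (adjusted p = 0.0632 from edgeR). Itgb2 exceeded Itgam per length 3.80-fold and 14.9-fold in cKO, against 5.81-fold and 3.92-fold in WT. The level of Itgam carries an annotation limit. A total of 68.7% of its exon bases are shared with an overlapping entry on the same strand (ENSMUSG00000108596, 128062683 to 128128160), which the deposited table also names Itgam and lists at an FPKM of 0.0131 in WT replicate 1 and at 0 elsewhere. The sources used here do not say how reads on shared bases were counted, so the level of Itgam against other genes is uncertain. Neutrophils and monocytes also carry CD11b, and Itgam was lowest in cKO replicate 2, the library with the highest summed level of their markers. Their part in the Itgam counts was not tested.

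The start region of Itgam is shown for its place beside C1qc as the member with a gap of over 4-fold between the cKO libraries.
Itgam promoter, chr7:128062390-128062689, plus strand: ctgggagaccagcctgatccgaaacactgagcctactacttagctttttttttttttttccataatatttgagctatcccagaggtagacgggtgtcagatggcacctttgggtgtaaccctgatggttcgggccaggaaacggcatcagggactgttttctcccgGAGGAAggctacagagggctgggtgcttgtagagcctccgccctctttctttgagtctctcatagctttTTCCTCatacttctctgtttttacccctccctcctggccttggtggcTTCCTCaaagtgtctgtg
It holds 3 GAGGAA cores, beginning at positions -84, -15 and 33 from the start, the last 2 on the other strand, and neither of the other motifs.

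**Figure D3:**
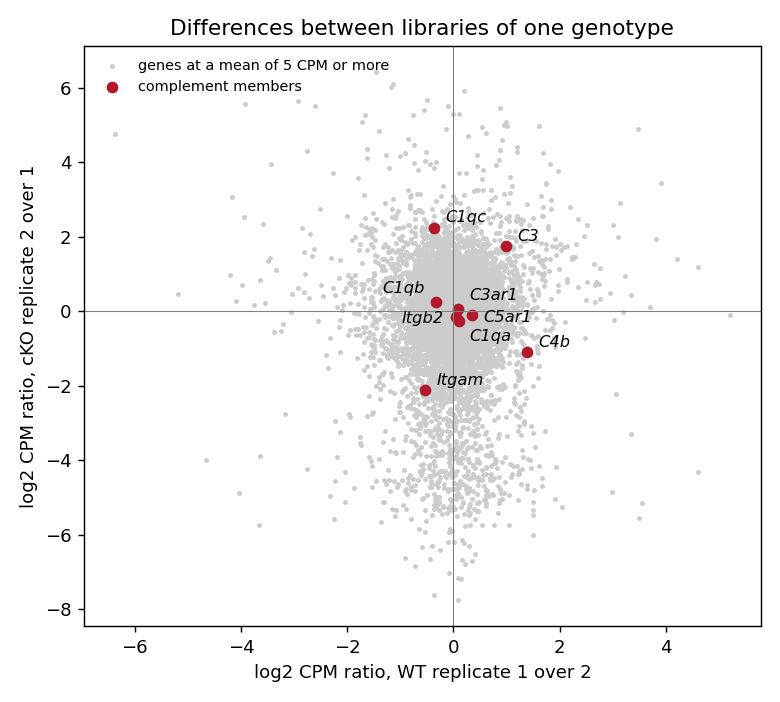
Each point is a gene whose mean was 5 CPM or more, plotted by its log2 CPM ratio (0.5 added to each value) between the WT libraries (x axis) and between the cKO libraries (y axis), with the 9 complement genes in red. C1qc and C3 lie far above 0 and Itgam far below on the cKO axis, whereas C1qa, C1qb, Itgb2, C3ar1 and C5ar1 sit near the centre. C4b lies below 0 on the cKO axis and furthest right of the 9 on the WT axis.

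Of the anaphylatoxin receptors C3ar1 was the steadier, with 1.17-fold between its lowest and highest library in CPM, against 1.30-fold for C5ar1. C3ar1 (ENSMUSG00000040552, chromosome 6, 122847138 to 122856161, minus strand), the receptor for C3a, was at 145.0 and 153.4 FPKM in cKO, against 167.3 and 155.6 FPKM in WT. Both cKO libraries lay below both WT libraries. The level was 634.2 ± 15.1 CPM in cKO and 706.5 ± 30.8 CPM in WT (SD, n = 2 each), with a fitted log2 ratio of -0.16 ± 0.14 (SE) and an unadjusted p = 0.321 from edgeR. With each library left out it ranged from -0.20 to -0.13, a direction that the lack of overlap set beforehand. C3ar1 varied the least of the 9 genes, with its highest library only 1.17-fold above its lowest.

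C5ar1 (ENSMUSG00000049130, chromosome 7, 16246743 to 16259540, minus strand), the receptor for C5a, was at 44.4 and 41.9 FPKM in cKO, against 42.9 and 33.3 FPKM in WT. The single low library was WT replicate 2, and the other 3 lay close together. The log2 fold change was 0.14 ± 0.23 (SE), and it was -0.029 without WT replicate 2. C3ar1 exceeded C5ar1 per length 3.27-fold and 3.66-fold in cKO, against 3.90-fold and 4.68-fold in WT. C3ar1 also exceeded C3 91.3-fold and 26.9-fold in cKO, against 86.9-fold and 171.2-fold in WT. Per length, the receptor transcript was thus far above that of the component its ligand comes from in every library.

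By mean FPKM over the 4 libraries the order of the 9 genes was C1qa (5611), C1qb (3148), C1qc (1268), C3ar1 (155.3), Itgb2 (105.2), C5ar1 (40.6), Itgam (19.9), C3 (2.53) and C4b (1.95). The ranges over libraries of neighbours in this order overlapped only for C3 and C4b. C5ar1 and Itgam came close, with 33.3 FPKM as the lowest value of C5ar1 and 31.7 FPKM as the highest of Itgam. The place of Itgam in this order is uncertain because of the shared exon bases given above.

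**Figure D4:**
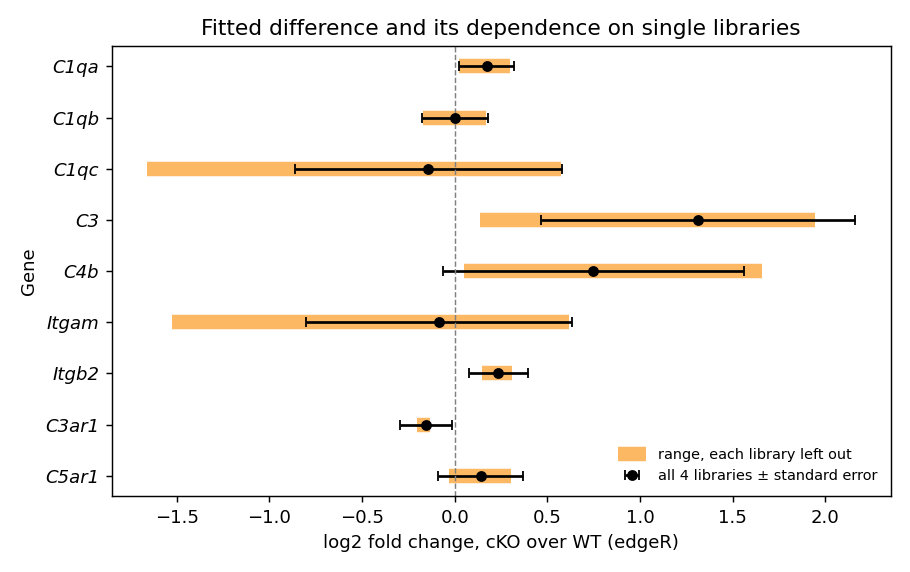
Fitted log2 fold change of cKO over WT for each gene (black points, bars are 1 standard error) and its range when each library is left out in turn (orange). The range crosses 0 for C1qb, C1qc, Itgam and C5ar1, and is widest for C1qc, from -1.66 to 0.57, and for Itgam, from -1.52 to 0.62.

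The authors compared each cKO library with each WT library, and their calls of these genes went with single libraries. In the authors' deposited tables C1qc was called lower in both comparisons of cKO replicate 1 and in neither of cKO replicate 2, with log2 fold changes of -1.45 and -1.79 for replicate 1 and 0.82 and 0.48 for replicate 2, against WT replicates 1 and 2. Itgam was called lower in both comparisons of cKO replicate 2 in the authors' deposited tables, at -1.18 and -1.69, and was at 0.93 and 0.41 for replicate 1. C3 was called higher in both comparisons of cKO replicate 2, at 1.57 and 2.65 in the authors' deposited tables, and stood at -0.28 and 0.81 for replicate 1. C4b was called higher in both comparisons that used WT replicate 2, at 2.17 for cKO replicate 1 and 1.05 for cKO replicate 2 in the authors' deposited tables. The other 5 genes were called in none. Higher calls covered 20.3% and 17.2% of genes in the tables of cKO replicate 1 and 18.1% and 17.1% in those of cKO replicate 2, and lower calls 15.8%, 17.6%, 28.7% and 31.7%, in the same order. These calls require a 2-fold difference and p under 0.05. Calls in either direction covered 36.1% and 34.8% for cKO replicate 1 and 46.8% and 48.8% for cKO replicate 2. None of the 9 genes (0) had the same call throughout the authors' deposited tables, against 5.37% of all genes. In at least 3 of these tables it was again 0 of the 9, against 9.69%, and 0 of the 9 were called in opposite directions, against 11.9%. Each library stands in 2 of the 4 tables, so the tables are not independent.

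The other genes of the pathway were given by a list of 54 symbols covering proteases, the alternative and terminal arms, regulators and receptors, of which 29 had counts and 23 were tested. None passed edgeR over all genes. Their median log2 fold change was -0.16, or 0.003 over those at a mean of 5 CPM or more, with 10 fitted higher and 13 lower, against 48.2% fitted higher of all genes tested. Of the 9 listed genes at a mean of 5 CPM or more, both cKO libraries exceeded both WT libraries for 1 and were lower for 2, against 17.1% and 19.1% of all such genes. An unadjusted p under 0.05 was reached by 3 of the 23 (Itgax, Clu and Cd46), against 4.65% of all genes. Of these, Cd46 was near the floor, with 0 counts in both cKO libraries and 17 and 13 counts in WT. Of the genes of the terminal arm, which form the membrane attack complex, C8g alone had counts, at 4.17 and 1.67 CPM in cKO, against 5.04 and 3.34 CPM in WT. Of the 5 receptors tested, 0 were fitted higher, and for 2 of them, Itgax and C5ar2, both cKO libraries were below both WT libraries. Of the regulators 6 were fitted higher and 6 lower.

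Itgax, the alpha subunit of complement receptor 4 and a partner of Itgb2, was at 204.3 and 107.5 CPM in cKO, against 346.1 and 299.7 CPM in WT. Both cKO libraries lay below both WT libraries, with a fitted log2 ratio of -1.05 ± 0.35 (SE) and an unadjusted p = 0.0322 from edgeR, which did not hold over all genes. Unlike Itgam, Itgax was lower in both cKO libraries. Per length, Itgam and Itgax together came to 74.3 and 30.3 FPKM in cKO, against 87.9 and 84.9 FPKM in WT, while their beta partner Itgb2 was the higher in cKO. The part of Itgam in this sum is uncertain, since most of its exon bases are shared with an overlapping entry. C5ar2, a second C5a receptor, was at 29.5 and 24.7 CPM in cKO, against 40.5 and 37.4 CPM in WT. Its fitted log2 ratio was -0.53 ± 0.32 (SE), with an unadjusted p = 0.166 from edgeR. C5ar1 exceeded C5ar2 per length 5.35-fold and 5.91-fold in cKO, against 3.81-fold and 3.24-fold in WT. The lower C5ar2 values in cKO enter this ratio, which was not tested.

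Clu, encoding clusterin, an inhibitor of the terminal complex that astrocytes make in quantity, was at 22.7 and 40.7 CPM in cKO, against 13.6 and 13.9 CPM in WT. Its log2 fold change was 1.21 ± 0.46 (SE), with an unadjusted p = 0.0491 from edgeR. Of the 8 astrocyte markers at a mean of 5 CPM or more, 5 were higher in both cKO libraries than in both WT libraries. The share was 17.1% of all such genes. For 0 of the 8 both were lower, against 19.1%. Gfap, the most abundant of them, was at 82.3 and 201.2 CPM in cKO, against 140.9 and 89.4 CPM in WT. Their part in the Clu counts was not tested. Lrp1, an endocytic receptor that binds C1q, was at 1508 and 502.0 CPM in cKO, against 1301 and 1351 CPM in WT, low in cKO replicate 2 only. C1qbp, a mitochondrial protein also known to bind C1q, was at 72.4 and 97.7 CPM in cKO, against 97.0 and 92.3 CPM in WT. Low-level genes spread by library. Cfp, properdin, was at 1.91 and 15.5 CPM in cKO, against 4.08 and 4.50 CPM in WT, high in cKO replicate 2 as C3 was. Masp1, a lectin pathway protease, had 54 and 90 counts in cKO, against 22 and 38 counts in WT, and Csmd3, a protein with CUB and sushi domains, was at 4.76 and 1.00 CPM in cKO, against 7.91 and 4.50 CPM in WT.

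**Figure D5:**
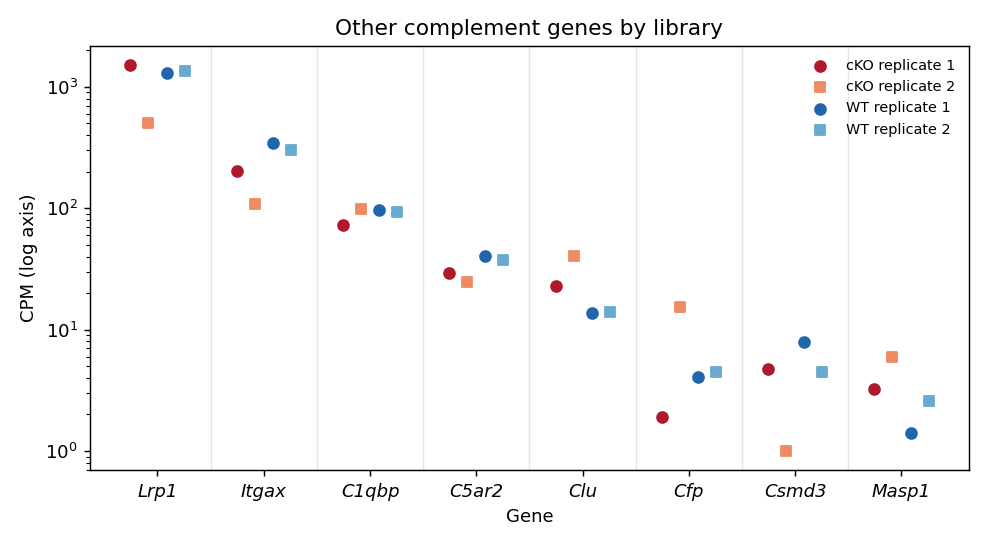
CPM (log axis) of 8 other complement genes named in the text, by library, with cKO libraries in reds and WT libraries in blues. Itgax and C5ar2 lie lower and Clu and Masp1 higher in both cKO libraries than in both WT libraries, and none passed edgeR over all genes.

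Likeness of pattern was measured as the root mean square difference of log2 CPM over the 4 libraries, each gene centred on its own mean, over 6144 genes whose mean was 20 CPM or more. With only 4 libraries this is a description. Nearest to the mean profile of the C1q chains were Paqr4 and Il1rl2 (both 0.027), B9d2 (0.034), Zfp120 (0.037) and Lrp12 (0.041). C1qc dominates that mean, so these genes do not follow the chains as a group. The log2 ratio of cKO replicate 2 over 1 was 2.24 for C1qc, against -0.27 for C1qa and 0.24 for C1qb. Il1rl2, encoding a receptor for IL-36, for example, was at 96.8 and 157.1 CPM in cKO, against 129.9 and 143.3 CPM in WT, lowest in cKO replicate 1 as C1qc was. Among the nearest to C3 were Bora (0.099), Ercc6 (0.13), Irgm1 (0.15) and Dscc1 (0.16). Among the 9 genes themselves the closest pair was C1qa and Itgb2 (0.055), and only 0.684% of the compared genes were closer to C1qa. C1qa and C1qb were 0.25 apart, whereas C1qc was 0.97 from C1qa, and 96.3% of the compared genes were closer to C1qa than C1qc was. The furthest pair was C3 and Itgam, at 1.70.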

How the data were processed

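The members and the gene lists were chosen with earlier results of these data known. Listed in the submitters' processing notes, with no role or order, are HTSeq 0.6.0, TopHat2 2.0.12, Bowtie2 2.2.3 and the genome build mm9. Settings, strand and annotation are not stated in the sources used here. Gene positions in the deposited table matched GENCODE M21 (GRCm38) for 92.1% of 21008 shared genes and for all 9 members, so positions are given as GRCm38.

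The deposited files hold an FPKM table (21044 genes) and 4 pairwise tables, each setting 1 cKO library against 1 WT library. Per the file headers, the pairwise tables give read counts per gene, a log2 fold change (cKO over WT), an unadjusted p-value and an adjusted one. The sources used here do not name the test behind the deposited p-values, and the adjusted ones are below the unadjusted ones for 82.7% of entries, so they were used only in the authors' own calls and, for the adjusted ones, in 1 alternative to these calls.

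Joining the pairwise tables gave counts for 18459 genes, with 0 conflicts. Cells missing from both tables of a library, 4315 of 73836, were recovered from FPKM, 100.0% being whole within 1e-06 and the highest 4. The other 2585 genes had no counts and were not tested. Libraries of 1 genotype differed by more than sampling noise (chi-square per degree of freedom 107 for cKO and 27.8 for WT), so neither pair was treated as repeat deposits of 1 library. This does not show that they are separate biological samples.

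The test was edgeR 4.0.16 (R 4.3.3) with TMM, filterByExpr and the quasi-likelihood F test, adjusted by Benjamini-Hochberg over 13086 genes. CPM are TMM-scaled, and standard errors were derived from the F statistic. Alternatives were DESeq2 1.42.0, limma 3.58.1 on log2(FPKM + 1) and log2(FPKM + 0.1), other scalings and filters, a replicate block and leaving out each library. The script was tested on simulated data with the same spread set for all genes and libraries. That does not show its power in these data. Named genes beside the members are the 4 other complement genes highest in FPKM, the 6 with the smallest p at a mean of at least 1 CPM, and the 5 nearest in pattern to the C1q chains and to C3. Some genes that this rule names are not reported here. Lag3 and Cx3cr1 were named as checks. C8g, Cd46 and single marker genes were named after their values were seen. Of the 9 members, 6 had a start region in the RefSeq table.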

Additional observations from a re-analysis of the deposited data

How the results depend on the processing

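None of the 9 complement genes passed under any of 12 other settings, the lowest adjusted p being 0.0632 for Itgam without cKO replicate 1. Of 108 refitted member values, 100 kept their direction. The 8 that turned belong to C1qb, C1qc, Itgam and C5ar1, all but 1 with a library left out, over -0.17 to 0.17 for C1qb, -1.66 to 0.57 for C1qc, -1.52 to 0.62 for Itgam and -0.029 to 0.31 for C5ar1. C1qb was also at -0.0029 with no low-count filter. C1qa (0.025 to 0.30), C3 (0.14 to 1.94), C4b (0.053 to 1.66), Itgb2 (0.14 to 0.31) and C3ar1 (-0.20 to -0.13) kept their direction with each library left out. For Itgb2 and C3ar1 this was set beforehand, since their groups did not overlap in CPM. The median over the members ranged from 0.074 to 0.21 with each library left out.

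The median of the other complement genes was -0.16, 0.003 at a mean of at least 5 CPM and -0.081 with limma on log2(FPKM + 1), and ranged from -0.06 to 0.12 with each library left out, so its sign rests on the genes and libraries kept. Over all genes edgeR called 0, DESeq2 called 39, and fits with a library left out called between 0 and 910, 910 being the value without cKO replicate 1. The cause of these changes was not tested. The labels tie no shared origin to a replicate number, and the deviations of equally numbered libraries were unrelated (r = -0.0229 over genes). With the replicate block 0 genes were called, the member median was 0.15, C1qc was at -0.53 and Itgam at -0.42. The length of the longest C1qc transcript, an alternative chosen after seeing the data, is shorter and so raises the C1qc share in all 4 libraries by construction. Adding an adjusted p under 0.001 to the authors' calls left 0 of the 9 called throughout. This was set beforehand, since an added condition can only remove calls. Depth limits C3 and C4b, at 64 to 430 counts per library.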
